A study of Mus musculus with 9 samples.

Results

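The miRNAs described here, mostly recently annotated, are those listed under numbers 6000 to 8999. All were detected in the hippocampus of mice given saline, LPS or LPS + GAS. They were chosen by their name and by their own read counts, with at least 1 read in at least 3 of the 9 libraries. Of 1448 listed mature miRNAs, 436 carried such a number and 270 of these passed, out of 1122 miRNAs that passed at any number. The remaining 166 had reads in at most 2 libraries.

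Small RNA of the hippocampus was sequenced from male C57BL/6J mice in 3 groups of 3 libraries. The saline group received 0.9% saline. The LPS group received LPS, a bacterial endotoxin that provokes inflammation, as a single intraperitoneal dose of 1 mg/kg. The labels of this group also name an equal volume of 0.12% saline, without stating its role. The LPS + GAS group received the same LPS and then GAS (gastrodin, a phenolic glucoside of the orchid Gastrodia elata) at 100 mg/kg, 1 h after LPS by the labels, although the methods also describe both as given concurrently. All groups share the wild-type background, and the comparisons ask how these miRNAs differed after endotoxin and after gastrodin given with it. The labels do not say whether a library is 1 mouse or a pool, so the p-values measure the spread between these libraries.

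Most miRNAs are cut from a hairpin by the Drosha enzyme in the nucleus and then by Dicer in the cytoplasm, and mainly a single arm of the hairpin, 5p or 3p, is kept by an Argonaute protein. A mirtron skips the Drosha step. Its hairpin lies at the end of an intron, and splicing itself makes the cut at that end. Only where the hairpin fills the intron does splicing make both cuts. The 3p arm then tends to carry the pyrimidine-rich tract and the terminal AG that mark the end of an intron. Mirtrons are usually scarce beside the conserved miRNAs of the brain. Bases 2 to 8 of a mature miRNA, the seed, pair with the target mRNA.

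The sequences below are those of the leading members with an entry in RefSeq, written 5′ to 3′ with the seed in capitals. They are shown so that the seeds and the ends of the 3p arms, with and without AG, can be read.
miR-7689-3p: uUAGAGCCagacugccuggguuu
miR-7080-3p: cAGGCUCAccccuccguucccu
miR-7080-5p: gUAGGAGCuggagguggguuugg
miR-6944-3p: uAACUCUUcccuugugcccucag
miR-7044-3p: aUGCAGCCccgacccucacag
miR-6958-3p: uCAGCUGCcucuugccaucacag
miR-6940-3p: uUACCUUCcgugcuugcccgcag
miR-7019-3p: uCACCUUGgccgccucucugcag
miR-6540-3p: uCUGAAGCuugcuuaccucca
miR-8112: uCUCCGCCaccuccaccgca
miR-7240-5p: uUGGAGAGgaccgccgucgga
Of the 11, 5 end in AG, namely those of hairpins mir-6944, mir-7044, mir-6958, mir-6940 and mir-7019. Pyrimidines (C and U) made up 57.1% to 73.9% of these 5, and as much as 77.3% of miR-7080-3p and 75% of miR-8112, which do not end in AG. By name, 234 of the 270 members matched a RefSeq mature miRNA on GRCm38.p6, and all 234 had the same letters as the deposited table. No member's mature sequence was shared with another listed miRNA, although near-identical copies were not searched for.

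The most abundant members came from different kinds of locus. Mir-7689 lies at chr5:36301570-36301628 on the plus strand, outside any annotated intron or exon of that strand. Mir-7080 lies at chr8:123130106-123130172 on the plus strand and fills a 67-base intron of Cpne7, a gene for a calcium-dependent membrane-binding copine, from its first base to its last. Mir-6944 at chr13:55477681-55477776 (minus strand) fills in the same way a 96-base intron of Dbn1, which encodes drebrin, an actin-binding protein of dendritic spines. Mir-6958 at chr15:89185465-89185537 (minus strand) fills a 73-base intron of Dennd6b. Mir-7044 at chr6:118085192-118085263 (plus strand), mir-6940 at chr12:112733322-112733391 (plus strand) and mir-7019 at chr4:138316132-138316200 (minus strand) end on the last base of longer introns of Rasgef1a (705 bases), Cep170b (833 bases) and Pink1 (1173 bases). Pink1 encodes a mitochondrial kinase. Mir-6540 at chr16:42303362-42303469 (minus strand) sits inside a 48106-base intron of Gap43, the gene of a growth-cone protein, 10995 bases from its end. Mir-8112 at chr6:71271671-71271801 (plus strand) overlaps an exon of Krcc1 and no intron.

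Most of these hairpins lay at an intron end. Of 202 hairpins with at least 1 member, 172 had RefSeq coordinates, and 159 of the 172 (92.4%) lay in an intron of a gene on the same strand. In 136 of the 172 (79.1%), the hairpin or its 3p arm ended within 2 bases of the last base of an annotated intron, 133 of them exactly on it. The same held for 29 of 48 hairpins (60.4%) of the number range below the detection rule and for 25 of 490 hairpins (5.10%) with other numbers. The host introns of the 136 hairpins had a median length of 443 bases, from 67 to 36269 bases, and 28 were of 100 bases or less. Both ends of the hairpin fell at the intron's ends in 6 of the 172 (3.49%), which were mir-7080, mir-6944, mir-6958, mir-6973b, mir-7068 and mir-7082. In the others of the 172 that ended at an intron end, the hairpin was the 3′ part of a longer intron. Both ends fell at the intron's ends in 5 of 48 hairpins (10.4%) of the number range below the detection rule. With other numbers it was 6 of 490 (1.22%).

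The letters of the mature arms followed the same division. This is not a separate trait where a 3p arm ends at an intron end, since the arm then carries the intron's terminal AG. Of 149 members on the 3p arm, 104 (69.8%) ended in AG, against 35 of 402 detected 3p miRNAs (8.71%) with other numbers and 45 of 74 3p miRNAs (60.8%) of the number range below the detection rule. The detected miRNAs numbered 3000 to 3999, which are among those with other numbers, stood between, with 9 of 45 3p miRNAs (20%) ending in AG. The median share of pyrimidines (C and U) was 71.4% in the 3p members and 52.4% in the other detected 3p miRNAs, with 59.1% in those numbered 3000 to 3999. In the 110 members on the 5p arm it was 35.5%, against 50% in the other detected 5p miRNAs. The 11 members listed with no arm included none that ended in AG. Median length was 22 bases on both arms, as in the other detected miRNAs. MiR-7080-3p, of a hairpin that fills its intron, itself ended in CU, with the last bases of the hairpin lying beyond the mature arm.

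**Figure D1:**
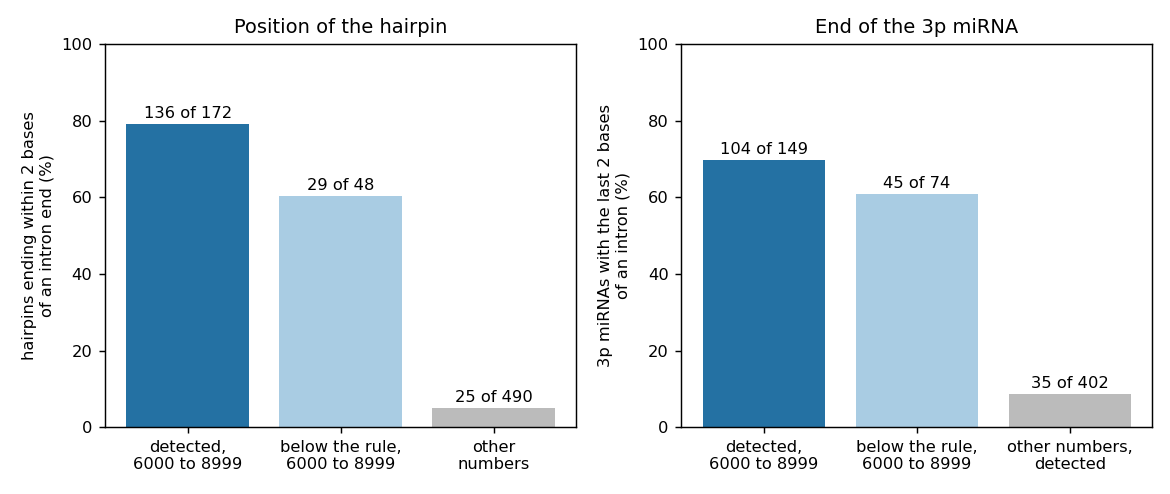
Left, percent of hairpins ending within 2 bases of the end of an annotated intron on the same strand, for hairpins with a detected member, the remaining hairpins numbered 6000 to 8999, and hairpins with other numbers. Right, percent of 3p miRNAs ending in the 2 bases AG, for members, the number range below the rule, and detected miRNAs with other numbers. Hairpins with other numbers are counted on the left whether detected or not. AG was counted from the letters alone, whether or not an intron ends there. Bars start at 0 and carry their counts. The detected members stand at 79.1% and 69.8%, and other numbers at 5.10% and 8.71%.

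Some mature arms could also be found in other transcripts. The letters of 51 of 270 members (18.9%) occurred in an annotated transcript of a gene that is not a miRNA gene. The same held for 190 of 852 other detected miRNAs (22.3%). Transcripts that retain an intron were counted. For miR-7080, both arms occurred in a Cpne7 transcript that retains the intron, and for miR-6958 both arms occurred in a Dennd6b transcript. MiR-7044-3p occurred in a protein-coding Rasgef1a transcript and both arms of mir-7019 in a protein-coding Pink1 transcript. MiR-8112 lay in Krcc1 and miR-8114 in Glul, the glutamine synthetase gene. MiR-6516-5p occurred in the small Cajal body RNA Gm26083 and miR-6481 in mt-Tf, the mitochondrial phenylalanine tRNA. Reads of a miRNA and of a fragment of such a transcript cannot be told apart in these files.

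Seeds were mostly private. The 270 members had 258 distinct seeds, and 24 members shared theirs with another member. A pair that did so was read at unequal depth, with 312 reads over 9 libraries for miR-6948-3p and 49 for miR-7117-3p. The second of these ended in AG at the end of an intron of Ank, a pyrophosphate transporter gene.
miR-6948-3p: uGUCCUUCcugucugaccaca
miR-7117-3p: uGUCCUUCucuuucccccag
A further comparison with detected miRNAs of other numbers found 24 members that shared a seed with at least 1 of them. Among these, miR-7080-3p shared it with miR-3079-3p, miR-6540-5p with miR-5624-3p, miR-7069-3p with miR-18a-3p of the miR-17-92 cluster, miR-6769b-3p with miR-141-5p of the miR-200 family, and miR-6395 with miR-328-3p.

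As a group the members were scarce. The libraries held 10119758 to 11457656 reads on miRNAs, and the members took 0.0443% to 0.0882% of them. Over the 9 libraries this was 62700 reads, 0.0663% of all. The median member had 16 reads summed over 9 libraries, with quartiles at 7 and 47.8, while the median of the 852 other detected miRNAs was 478 reads and that of the 98 detected miRNAs numbered 3000 to 3999 was 50.5. The distribution was steep. MiR-7689-3p alone held 49.0% of the members' reads, the top 4 members held 75.5% and the top 10 held 84.5%. At the other end, 78 members had fewer than 9 reads in all.

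Detection differed little between libraries. From 200 to 213 of the 270 members had a read in a given library, with 208 ± 5 (SD, n = 3) in saline, 203 ± 3 (SD, n = 3) in LPS and 207 ± 3.61 (SD, n = 3) in LPS + GAS. In all 9 libraries, 104 members were read. Exactly 3 libraries had reads in 30 members, with a median of 3 reads summed over 9 libraries, and these were just inside the rule. Exactly 2 libraries had reads in 48 listed miRNAs, with a median of 2 reads, and these were just outside it. The best-read members just inside were miR-6395 with 75 reads, miR-7034-5p with 11 and miR-7653-5p with 9. Just outside were miR-6970-5p with 5, miR-7092-5p with 5 and miR-7068-3p with 4. At this depth a count of 0 allows a level of up to 0.262 to 0.296 CPM (counts scaled to 1e6 reads on miRNAs), taking 3 reads as the upper limit of a count of 0.

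**Figure D2:**
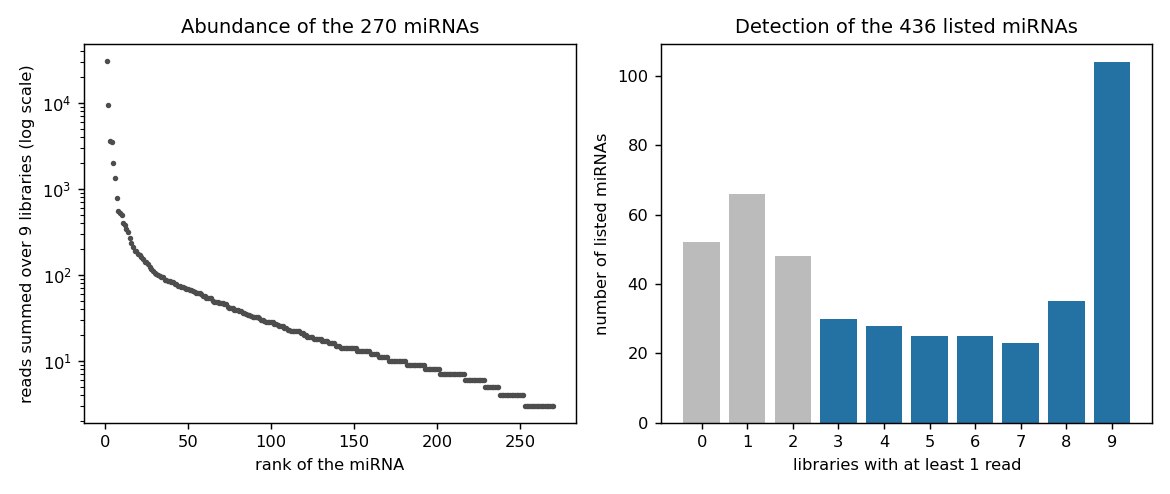
Left, reads summed over 9 libraries (log scale) for the 270 detected miRNAs, in order of abundance. Right, number of the 436 listed miRNAs by the number of libraries with at least 1 read, with the 270 members in blue and the 166 below the rule in grey. The highest point is miR-7689-3p with 30704 reads, and 104 miRNAs stand in the bar for 9 libraries.

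Levels of hairpins at intron ends and elsewhere are given here by class, and in 3 of the 4 classes a single hairpin held most of the reads. The 136 hairpins ending at an intron end held 23457 member reads over 9 libraries, 13003 of them from mir-7080, with a median of 24.5 reads per hairpin. The 23 hairpins within an intron but away from its end held 5173 reads with a median of 41, and mir-6540 had 4014 of these. The 13 hairpins with no host intron held 31782 reads with a median of 56, and mir-7689 had 30704 of these. The 30 hairpins with no RefSeq coordinates held 2288 reads with a median of 37. The 3p members that ended in AG had a median of 17 reads over 9 libraries, against 32 for those that did not. These levels were among the values that chose the members and are given as a description.

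The share of reads on members was 0.0676% ± 0.0148 (SD, n = 3) in saline, 0.0733% ± 0.0170 (SD, n = 3) in LPS and 0.0582% ± 0.0124 (SD, n = 3) in LPS + GAS. The ranges overlapped between all groups. Without miR-7689-3p and the arms of mir-7080, the share was 0.0191% ± 0.00238 (SD, n = 3), 0.0229% ± 0.00540 (SD, n = 3) and 0.0185% ± 0.00142 (SD, n = 3) in the same order. LPS replicate 2 was the highest library on this measure with 0.0291%, and all others lay at or below 0.0212%.

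Levels of single members are given below as CPM with edgeR's TMM scaling of each library, and mature miRNAs are near enough in length that no length term enters. The leading member was miR-7689-3p. Saline libraries gave 3619, 3089 and 4079 reads of it, LPS libraries 4034, 3446 and 3087, and LPS + GAS libraries 3974, 2221 and 3155. Its mean level was 343 ± 69.0 CPM (SD, n = 3), 333 ± 60.7 CPM (SD, n = 3) and 300 ± 73.2 CPM (SD, n = 3). The groups overlapped, and the lowest library was LPS + GAS replicate 2.

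Among the 12 leading members, the arms of mir-7080 had the widest spread between libraries. MiR-7080-3p had 851, 740 and 2007 reads in saline, 1280, 1799 and 481 in LPS and 955, 261 and 1082 in LPS + GAS. MiR-7080-5p had 308, 194 and 798 reads in saline, 588, 738 and 43 in LPS and 269, 126 and 483 in LPS + GAS. Both arms were high in saline replicate 3 and LPS replicates 1 and 2 and low in LPS replicate 3 and LPS + GAS replicate 2. From the lowest to the highest library, the CPM of the 3p arm spanned 7.66-fold and that of the 5p arm 18.6-fold. The median span was 2.68-fold over the 48 tested members and 2.04-fold over the 580 other tested miRNAs, which were read more deeply. Mean levels of the 3p arm were 116 ± 74.8 CPM (SD, n = 3) in saline, 108 ± 53.1 CPM (SD, n = 3) in LPS and 73.3 ± 41.3 CPM (SD, n = 3) in LPS + GAS.

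**Figure D3:**
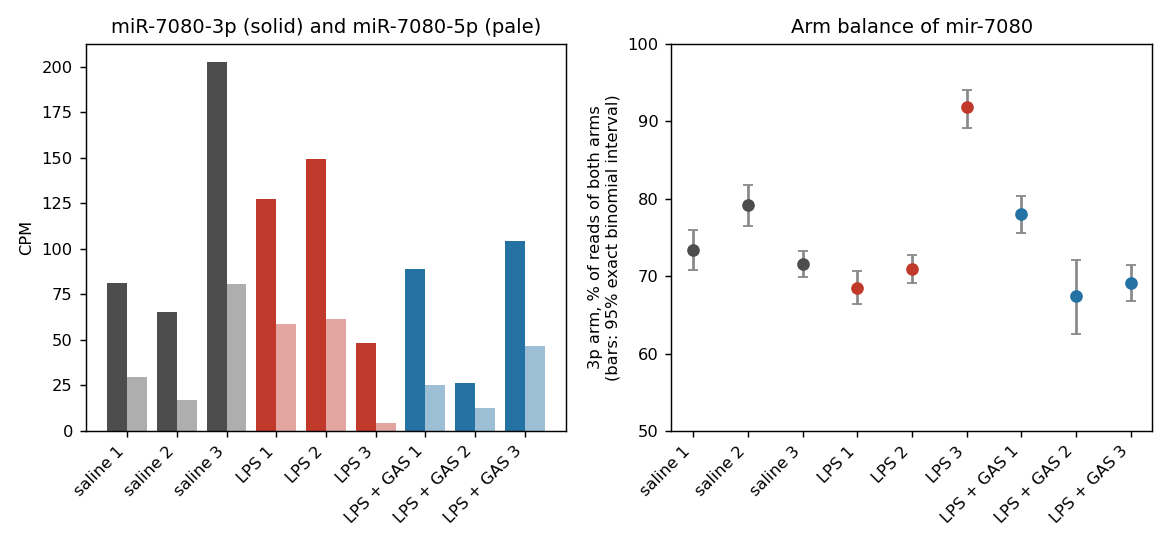
Left, CPM of miR-7080-3p (solid bars) and miR-7080-5p (pale bars) in each library. Right, percent of mir-7080 reads on the 3p arm with its 95% exact binomial interval, on an axis from 50% to 100%. Libraries are coloured by group, with saline in grey, LPS in red and LPS + GAS in blue. LPS replicate 3 stands at 91.8%, and the other 8 libraries lie between 67.4% and 79.2%.

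Mir-6540, the hairpin inside the Gap43 intron, was read mostly from its 5p arm. MiR-6540-5p had 287, 374 and 337 reads in saline, 402, 908 and 259 in LPS and 293, 388 and 362 in LPS + GAS. The value in LPS replicate 2 was the highest of the 9. The 3p arm had 37, 51 and 43 reads in saline, 43, 90 and 26 in LPS and 42, 35 and 37 in LPS + GAS, and was highest in the same library.

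MiR-6944-3p, from the drebrin intron, varied little within saline and LPS. It had 235, 232 and 223 reads in saline, 217, 277 and 228 in LPS and 266, 163 and 140 in LPS + GAS. Its levels were 21.8 ± 1.12 CPM (SD, n = 3), 22.5 ± 0.795 CPM (SD, n = 3) and 18.3 ± 5.88 CPM (SD, n = 3). MiR-7044-3p, from the Rasgef1a intron, had 117, 142 and 130 reads in saline, 145, 205 and 197 in LPS and 111, 139 and 137 in LPS + GAS. Its LPS libraries were the 3 highest of the 9 by CPM, at 14.4 to 19.8, against 11.2 to 13.1 in saline and 10.4 to 14.1 in LPS + GAS.

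The remaining leading members were each below 10 CPM. MiR-6958-3p was at 8.28 ± 0.568, 8.78 ± 1.16 and 8.01 ± 1.43 CPM (SD, n = 3 each) in saline, LPS and LPS + GAS. MiR-8112 was at 5.60 ± 2.10, 6.38 ± 1.22 and 5.33 ± 1.56 CPM (SD, n = 3 each). MiR-6940-3p was at 5.80 ± 1.02, 5.88 ± 1.23 and 4.69 ± 1.36 CPM (SD, n = 3 each). All 3 had overlapping groups. MiR-7019-3p ranged from 3.66 to 6.81 CPM and miR-7240-5p from 2.33 to 5.83 CPM over the 9 libraries, again with overlap between groups.

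**Figure D4:**
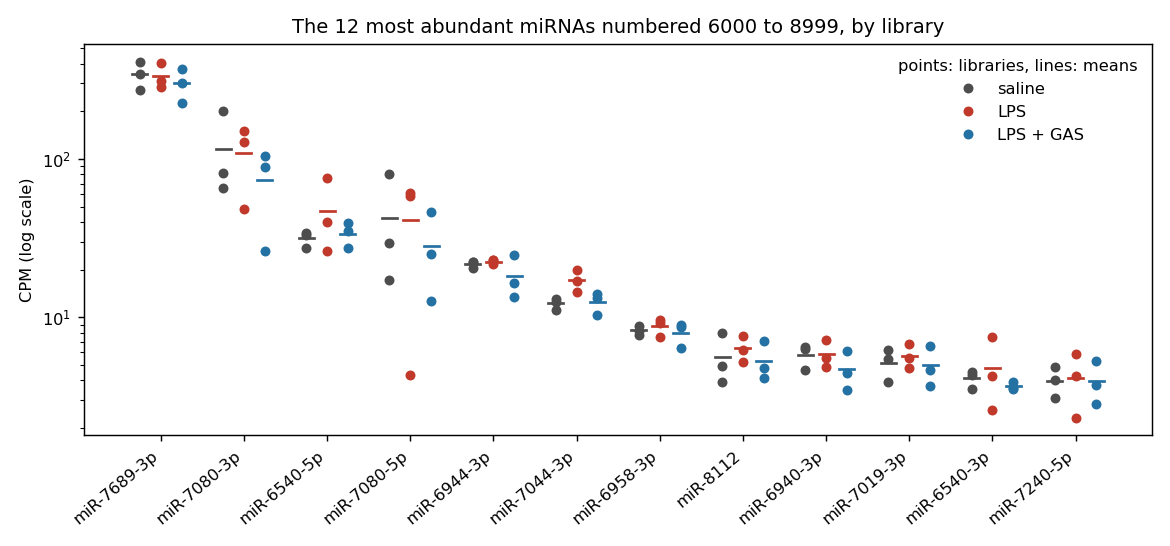
CPM (log scale) of the 12 members with the highest mean level, in each library. Points are libraries coloured by group (saline grey, LPS red, LPS + GAS blue) and short lines are group means. MiR-7689-3p lies between 225 and 411 CPM, and the points of each group overlap those of the others for every miRNA shown except miR-7044-3p.

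Arm balance leaned to the 3p side. Of 151 member hairpins with both arms listed, the 3p arm had more reads in 90 (59.6%), the 5p arm in 59, and 2 were equal. Among the 427 other hairpins it was higher in 198 (46.4%). With at least 50 reads over both arms and 9 libraries, the counts were 34 of 47 member hairpins (72.3%) and 157 of 350 others (44.9%). Among the hairpins ending at an intron end, the 3p arm was higher in 66 of 112 (58.9%), and in 24 of 30 (80%) with at least 50 reads. Within an intron but away from its end, it was higher in 9 of 17 (52.9%), and in 3 of 7 with at least 50 reads. With no host intron these were 2 of 4 and 1 of 2. With no RefSeq coordinates they were 13 of 18 (72.2%) and 6 of 8. The read counts of both arms entered the choice of members, and these counts are a description.

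The leading hairpins spanned nearly the full range of arm balance. Mir-7689 had 30704 reads on its 3p arm and 1 on its 5p arm. The 3p share over 9 libraries was 99.6% for mir-6944, 99.5% for mir-7044, 97.8% for mir-6958, 72.7% for mir-7080 and 10.1% for mir-6540. Lower in abundance, it was 71.0% for mir-6769b, in an intron of the synaptic priming gene Unc13a, 62.1% for mir-6915, in an intron of Ankrd52, and 47.2% for mir-6936, in an intron of the deacetylase gene Sirt7.

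Whether arm balance differed by treatment was tested in the 6 hairpins with at least 50 reads in every library, which gave 18 pairs of hairpin and comparison. With 3 libraries against 3, the smallest p that an exact permutation test can give is 0.1, so the design cannot reach 0.05. The smallest adjusted exact permutation p over the 18 pairs was 0.9. The 3p share of mir-6540 was 11.6% ± 0.369 (SD, n = 3) in saline, 9.27% ± 0.346 (SD, n = 3) in LPS and 10.03% ± 2.23 (SD, n = 3) in LPS + GAS. Saline and LPS did not overlap (two-sided exact permutation p = 0.1, adjusted p = 0.9), and the LPS mean minus the saline mean was -2.31 percentage points. The counting interval of a single library was wider and ran from 8.17% to 15.4% in saline replicate 1. The only other pair without overlap was mir-7044 in LPS + GAS, at 99.2% ± 0.1002 (SD, n = 3), against LPS at 99.8% ± 0.292 (SD, n = 3). The 5p arm of mir-7044 had 1, 1 and 1 reads in LPS + GAS and 0, 0 and 1 in LPS. Its shares thus rest on at most 1 read of the 5p arm per library. For mir-7080, the 3p share was 74.7% ± 4.003 (SD, n = 3) in saline, 77.1% ± 12.8 (SD, n = 3) in LPS and 71.5% ± 5.68 (SD, n = 3) in LPS + GAS. LPS replicate 3 reached 91.8% (95% exact binomial interval 89.1% to 94.0%), beyond the interval of every other library, with 43 reads on the 5p arm. These intervals cover counting error only.

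The response of levels to LPS and to GAS was tested with edgeR's quasi-likelihood test across the 628 miRNAs that reached 10 reads in 3 or more libraries. This filter kept 48 of the 270 members, and for the other 222 no test was made in the main analysis. A call needed an adjusted p no higher than 0.05 and a log2 fold change of 1 or more in either direction. No member was called in any of the 3 comparisons.

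After LPS, against saline, 0 of 48 tested members were called, beside 0 of 628 tested miRNAs (0%). DESeq2's Wald test and limma-voom also called 0 members. At an unadjusted p under 0.05 there was 1 member, against 2.39% of all tested miRNAs. The lowest adjusted p of a member was 0.992 (edgeR quasi-likelihood test). Fold changes of the members ran from -0.81 to 0.96 on the log2 scale with a median of 0.05, beside a median of -0.04 over all 628. Values above 0 numbered 30 of the 48, beside 267 of all 628, and the median standard error of a member was 0.37. Groups did not overlap in 2 members higher in LPS and 1 lower, against 1.91% of all tested miRNAs in each direction.

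MiR-6971-3p was the member lower in LPS, with 14, 16 and 17 reads in saline and 10, 11 and 6 in LPS. Its levels were 1.49 ± 0.199 CPM (SD, n = 3) and 0.838 ± 0.207 CPM (SD, n = 3), a log2 fold change of -0.81 (SE 0.33, edgeR adjusted p = 0.992). MiR-7044-3p was higher, with a log2 fold change of 0.48 (SE 0.21, edgeR adjusted p = 0.992). MiR-7236-3p was the other, with 6, 7 and 4 reads in saline and 9, 11 and 10 in LPS and a log2 fold change of 0.80 (SE 0.36, edgeR adjusted p = 0.992). None of the 3 passed the test.

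For the leading hairpins the fitted log2 fold changes after LPS were small beside their errors. They were -0.05 (SE 0.24) for miR-7689-3p and 0.05 (SE 0.24) for miR-6944-3p. For mir-7080 they were -0.10 (SE 0.60) on the 3p arm and -0.03 (SE 0.86) on the 5p arm. For mir-6540 they were 0.58 (SE 0.35) on the 5p arm and 0.22 (SE 0.34) on the 3p arm, and without LPS replicate 2 the 3p value turned to -0.23. The arms of mir-6769b gave 0.12 (SE 0.44) on the 3p and -0.29 (SE 0.58) on the 5p side. Those of mir-6915 gave 0.10 (SE 0.55) and 0.20 (SE 0.45), and those of mir-6936 gave 0.01 (SE 0.56) and -0.15 (SE 0.35), for 3p and 5p in that order. The edgeR adjusted p of each was at least 0.992.

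After LPS + GAS, against LPS, 0 of 48 members and 0 of 628 miRNAs (0%) were called, and DESeq2's Wald test and limma-voom called 0 members. At an unadjusted p under 0.05 there was 1 member, against 3.66% of all tested miRNAs. The lowest adjusted p of a member was 0.903 (edgeR quasi-likelihood test). The members' fold changes ran from -1.18 to 0.86 with a median of -0.15, beside a median of 0.00 over all 628, and 13 of the 48 were above 0, beside 318 of all 628. This comparison and that of LPS with saline share the LPS libraries. Groups did not overlap in 0 members higher in LPS + GAS, against 4.14% of all tested miRNAs, and in 2 members lower, against 4.46%.

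The larger of the changes without overlap was in miR-6418-3p, whose hairpin overlaps an exon of Gnb2. It had 6, 10 and 17 reads in LPS and 6, 3 and 5 in LPS + GAS, with 5, 10 and 5 in saline. Its log2 fold change was -1.18 (SE 0.52, edgeR adjusted p = 0.903). The other was miR-7044-3p, at 17.1 ± 2.69 CPM (SD, n = 3) in LPS and 12.5 ± 1.94 CPM (SD, n = 3) in LPS + GAS, a log2 fold change of -0.45 (SE 0.21, edgeR adjusted p = 0.903). Saline stood at 12.3 ± 0.993 CPM (SD, n = 3). Both comparisons of miR-7044-3p share the LPS libraries, so its higher level there enters both.

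Of the leading hairpins, miR-7689-3p changed by -0.15 (SE 0.24) on the log2 scale and miR-6944-3p by -0.30 (SE 0.24) in the fit of LPS + GAS against LPS. Mir-7080 gave -0.57 (SE 0.60) on the 3p arm and -0.56 (SE 0.87) on the 5p arm. Mir-6540 gave -0.48 (SE 0.35) on the 5p arm and -0.39 (SE 0.34) on the 3p arm, and without LPS replicate 2 these turned to 0.06 and 0.11. The 3p and 5p arms gave 0.03 (SE 0.43) and 0.86 (SE 0.56) for mir-6769b, -0.04 (SE 0.55) and -0.07 (SE 0.45) for mir-6915, and -0.05 (SE 0.56) and -0.35 (SE 0.37) for mir-6936. No edgeR adjusted p of these was below 0.903.

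Against saline, LPS + GAS gave 0 called members of 48, and 1 of 628 miRNAs was called (0.159%), which was miR-21a-3p, a miRNA outside the number range. DESeq2's Wald test and limma-voom again called 0 members. No member had an unadjusted p under 0.05, against 3.34% of all tested miRNAs. The lowest adjusted p of a member was 0.998 (edgeR quasi-likelihood test), the fold changes ran from -0.89 to 0.70, and their median was -0.06 beside -0.03 over all 628. Values above 0 numbered 18 of the 48, beside 277 of all 628. Groups did not overlap in 1 member higher in LPS + GAS, against 2.55% of all tested miRNAs, and in 1 lower, against 4.78%. These were miR-7236-3p, with 7, 11 and 9 reads in LPS + GAS and a log2 fold change of 0.70 (SE 0.37), and miR-6971-3p, with 12, 7 and 12 reads and a log2 fold change of -0.57 (SE 0.32), each with an edgeR adjusted p of 0.998. The saline libraries are the same as in the comparison of LPS with saline, where both were also without overlap.

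In the same comparison, miR-7689-3p gave a log2 fold change of -0.20 (SE 0.24), miR-6944-3p -0.26 (SE 0.24) and miR-7044-3p 0.03 (SE 0.21). Mir-7080 gave -0.67 (SE 0.60) on the 3p arm and -0.59 (SE 0.87) on the 5p arm. Mir-6540 gave 0.10 (SE 0.35) on the 5p arm and -0.17 (SE 0.34) on the 3p arm. The 3p and 5p arms gave 0.15 (SE 0.44) and 0.58 (SE 0.54) for mir-6769b, 0.06 (SE 0.55) and 0.13 (SE 0.46) for mir-6915, and -0.04 (SE 0.56) and -0.50 (SE 0.37) for mir-6936. Over the 3 comparisons, the members with no printed fold change ran from -0.97 to 0.96.

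**Figure D5:**
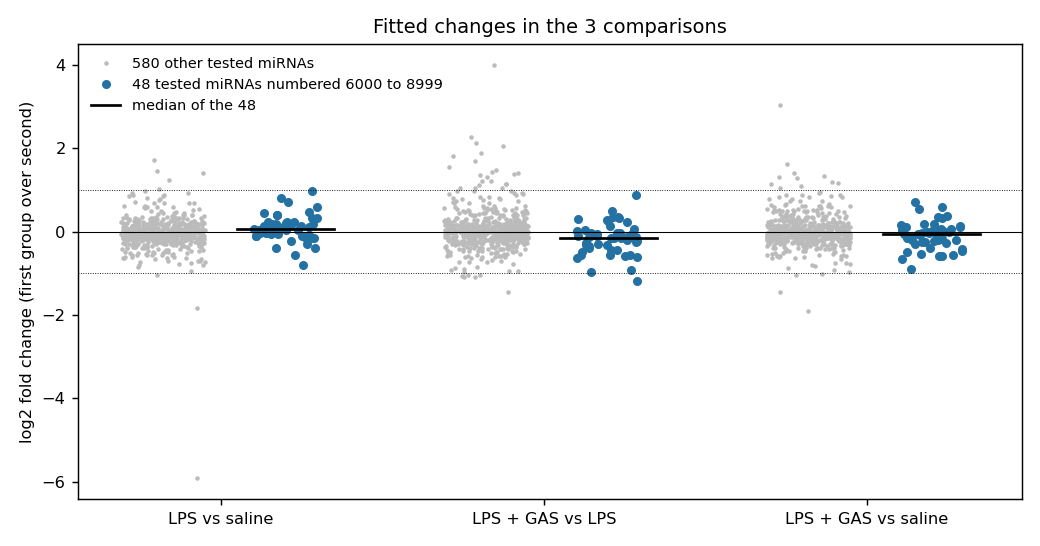
Fitted log2 fold change (first group over second) of the 48 tested members (blue) and of the 580 other tested miRNAs (grey) in each comparison, with the median of the members as a black line and dotted lines at -1 and 1. Points are spread sideways for legibility. The members lie between -1.18 and 0.96, and 1 of them, miR-6418-3p in LPS + GAS against LPS, passes -1.

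The study reports miR-6395 among the miRNAs lower after LPS and higher after GAS by sequencing, a pattern that its qRT-PCR did not match. In these counts miR-6395 had reads in exactly 3 libraries and did not pass the filter of the test. It had 43 reads in saline replicate 3, 31 in LPS + GAS replicate 2, 1 in LPS replicate 1, and 0 in the other 6 libraries. The reads therefore came almost wholly from 1 library in the saline group and 1 in the LPS + GAS group, and the other libraries of both groups were at 0. No other member had 20 or more reads in 1 library and at most 1 read in at least 3 others. Fitted with every miRNA of at least 1 read in 3 libraries kept, its edgeR adjusted p was 0.998 in LPS against saline, 0.946 in LPS + GAS against LPS and 0.999 in LPS + GAS against saline. With no filter these were 0.710, 0.528 and 1. DESeq2, the method of the deposited comparisons, was fitted here only on miRNAs past the filter of the test, and so not on miR-6395.

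Over all miRNAs together, libraries of the same group differed far beyond counting error. Chi-square per degree of freedom, a measure of spread against counting error, was 278 to 709 in pairs of such libraries. For single miRNAs over the 9 libraries, its median was 2.01 in the 48 tested members. In the 580 other tested miRNAs, which were read more deeply, it was 15.3. Summed levels of the marker miRNAs of other cells also differed between libraries. The 11 miRNAs of choroid plexus and ependyma summed to 9886 to 29982 CPM in saline, 9714 to 22613 in LPS and 12710 to 57536 in LPS + GAS. The 4 red blood cell miRNAs summed to 2025 to 4267 CPM in saline, 2150 to 3241 in LPS and 4541 to 6175 in LPS + GAS, higher in LPS + GAS without overlap. The 8 neuronal miRNAs summed to 114697 to 152391 CPM over the 9 libraries, and all 8 were read. The 2 oligodendrocyte miRNAs summed to 1383 to 4553 CPM and the 4 of leukocytes and microglia to 2569 to 6226 CPM over the 9 libraries. All marker miRNAs were read, and their part in the levels of the members was not tested. In such bulk tissue, fewer cells of a type and less RNA per cell cannot be told apart.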

How the data were processed

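Small RNA libraries from 9 mouse hippocampus samples, 3 per group, were analysed from a single deposited table. Per the labels and the table's columns, the authors deposited read counts per mature miRNA and library, not normalized, with a second whole number called exp of which the sources do not say how it was made. It was equal to the count in all 9 libraries for 252 of 270 members. For the aligner and counter, no name was given in the sources used here; the submitters' processing notes name GRCm38.p6. The deposited group averages and DESeq2 comparisons (log2 fold changes, p-values and q-values) were not used, and 0 columns with a value per library lacked a sample.

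The members and lists were chosen with earlier results of these data known. MiRNAs that reached 10 reads in 3 or more of the 9 libraries were fitted in R 4.3.3 with edgeR 4.0.16 (TMM factors 0.914 to 1.19), a mean per group in glmQLFit and glmQLFTest, with Benjamini-Hochberg adjustment over 628 miRNAs. DESeq2 1.42.0 and limma-voom (limma 3.58.1) were alternatives, as were other size factors, filters, the exp values, a replicate block, only the groups compared, no minimum fold change and each library left out. The steps were tested on simulated data. Arm shares were compared by two-sided exact permutation over 20 divisions of 6 libraries (scipy 1.17.1 for intervals). Hairpin coordinates came from RefSeq and introns from GENCODE M21, both on GRCm38, in place of a genome match of the precursors. Coordinates count from 1. Libraries of the same group were compared in pairs for duplicates, and none were found. Pairs across groups were not compared. Named were the 12 members with the highest mean CPM, up to 6 tested members per comparison without overlap, hairpins with both arms past the filter and the 5 with most reads, members with at least 20 reads in 1 library and at most 1 in at least 3 others, miR-6395, and those at the edge of the rule. MiR-6948-3p, miR-7117-3p and the other miRNAs named for their seed, host or transcript were chosen after their values were seen. Deviations from the group means of same-numbered LPS + GAS and saline libraries correlated at 0.216 to 0.256 in the 3 pairs. Only same-numbered libraries were correlated, so these values alone do not establish a pairing.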

Additional observations from a re-analysis of the deposited data

How the results depend on the processing

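Under every alternative fit, including the replicate block, no member was called in any comparison. With every member fitted, from at least 1 read in 3 libraries, 8, 8 and 4 of 270 members had an unadjusted p under 0.05 in the comparison of LPS with saline, of LPS + GAS with LPS and of LPS + GAS with saline, beside 2.67%, 4.46% and 2.85% of all 1122 miRNAs fitted (2.96%, 2.96% and 1.48% of members), and the lowest edgeR adjusted p was 0.998, 0.946 and 0.999. The replicate block left 0 members called in all 3 comparisons and changed no other call. Same-numbered libraries did not pair by the rule in LPS vs saline (correlations of 0.344, 0.212 and -0.251) or in LPS + GAS vs LPS (-0.163, 0.0344 and -0.229). In the main analysis, 222 of 270 members fell under the filter and were not tested.

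Over all miRNAs, 2 were called in LPS vs saline with no filter and 1 by DESeq2's Wald test, in place of 0. Leaving out libraries gave 0 to 1 in LPS vs saline, where 1 was called without LPS replicate 2 and without LPS + GAS replicate 3, and 0 to 1 in LPS + GAS vs LPS, where 1 was called without LPS replicate 2. Members without overlap numbered 3, 2 and 2 in the same order of comparisons. With CPM on library totals and no TMM factor they numbered 5, 4 and 1 of 48, beside 4.62%, 8.60% and 6.69% of all 628, and with every member counted 14, 22 and 15 of 270 (5.19%, 8.15% and 5.56%), beside 5.26%, 8.47% and 7.04% of all 1122. DESeq2 size factors gave 1 in LPS + GAS vs LPS (7.80% of all 628), and the exp values 1 in LPS + GAS vs saline (7.01% of all 628). With a library left out, which leaves 2 against 3, they numbered 5 to 10, 7 to 10 and 4 to 10. Fewer libraries separate more easily for any miRNA, and the share over all tested miRNAs was not counted in this setting. Without that share, these counts cannot be read as a result about the members. The detection rule set the number of members, with 104 read in all 9 libraries and 48 with at least 10 reads in 3. On the exp values, which total less for abundant miRNAs, the members' share was 0.164% in saline, 0.169% in LPS and 0.138% in LPS + GAS. The 3p arm was higher in 34 hairpins with at least 50 reads. Pairs of hairpin and comparison without overlap in arm share numbered 2 to 4 with a library left out. No share over other hairpins is given for these, and nothing is read from them. Of 3p miRNAs below the detection rule, 60.8% ended in AG.

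Of 757 refitted log2 fold changes of named members, 66 changed sign and none was called (adjusted p of 0.638 to 1 over these refits, which do not include miR-6395, at 0.528 in LPS + GAS vs LPS with no filter by edgeR). In LPS vs saline, miR-7080-5p turned from -0.031 to 0.032 with DESeq2 size factors, 0.031 with the DESeq2 Wald test, 0.021 with no filter and with at least 1 read in 3 libraries, 0.017 with at least 50 reads, 0.015 on the exp values and 0.36 with the replicate block. MiR-7080-3p turned to 0.15 with the replicate block, miR-7689-3p to 0.00815 with DESeq2 size factors and 0.00816 with the DESeq2 Wald test, and miR-6769b-3p to -0.052 with limma-voom. In LPS + GAS vs LPS, miR-6769b-3p turned to -0.00569 on the exp values. In LPS + GAS vs saline, miR-6915-3p turned to -0.12 with limma-voom and -0.042 with the replicate block, and miR-6936-3p to 0.021 with DESeq2 size factors, 0.018 with no filter and with at least 1 read in 3 libraries, 0.013 with the DESeq2 Wald test and 0.11 with limma-voom. The causes were not tested.

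With a library left out, these log2 fold changes took both signs. For LPS against saline the ranges were -0.23 to 0.52 for miR-6540-3p, -0.37 to 0.50 for miR-6769b-3p, -0.96 to 0.24 for miR-6769b-5p, -0.17 to 0.42 for miR-6915-3p, -0.13 to 0.48 for miR-6915-5p, -0.30 to 0.70 for miR-6936-3p, -0.26 to 0.018 for miR-6936-5p, -0.38 to 0.56 for miR-7080-3p, -0.41 to 0.83 for miR-7080-5p and -0.20 to 0.10 for miR-7689-3p. For LPS + GAS against LPS they were -0.68 to 0.11 for miR-6540-3p, -0.77 to 0.056 for miR-6540-5p, -0.34 to 0.53 for miR-6769b-3p, -0.64 to 0.37 for miR-6915-3p, -0.34 to 0.14 for miR-6915-5p, -0.31 to 0.22 for miR-6936-3p and -0.33 to 0.021 for miR-7689-3p. For LPS + GAS against saline they were -0.015 to 0.29 for miR-6540-5p, -0.017 to 0.36 for miR-6769b-3p, -0.49 to 0.53 for miR-6915-3p, -0.19 to 0.42 for miR-6915-5p, -0.35 to 0.65 for miR-6936-3p, -0.058 to 0.20 for miR-7044-3p and -1.10 to 0.27 for miR-7080-5p.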
